A study of Mus musculus with 4 samples.

Results

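The nuclear-encoded oxidative phosphorylation genes were followed across the leukocyte classes of the mouse hindpaw. Members were the genes whose symbols begin with Nduf, Uqcr, Atp5 or Cox4 to Cox8, without symbols holding -ps, and with at least 50 UMIs over the 4 libraries. The names matched 89 of the 32285 genes in the table, and 86 of these were members. They were 36 subunits of complex I, 8 assembly factors of complex I (Ndufaf genes), 8 subunits of complex III, 15 of complex IV, 17 of the ATP synthase, and 2 genes kept apart, Ndufa4l2, a paralog of the complex IV subunit Ndufa4, and Cox7a2l, which joins respiratory complexes to each other. Cox7b2 (1 UMI), Cox8c (1 UMI) and Cox8b (12 UMIs) matched the names and were below the minimum.

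Oxidative phosphorylation takes place in the inner mitochondrial membrane. Complexes I, III and IV pass electrons from NADH to oxygen and pump protons out of the matrix, and the ATP synthase uses the returning protons to make ATP. A few hydrophobic core subunits are encoded by the mitochondrial genome, and all other subunits are encoded in the nucleus, translated in the cytosol and imported. In immune cells the balance between this pathway and glycolysis is known to shift with activation, and resident tissue macrophages rely on it more than inflammatory ones.

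CD45+ cells were sorted from hindpaws of male mice and profiled by the 10x single cell 3' method, which tags every captured RNA molecule with the barcode of its cell and a molecular identifier (UMI). WT and DB mice (homozygous for Leprdb, a leptin receptor mutation, on the C57BLKS/J background, obese and hyperglycaemic) were compared at 12 and 21 weeks, and groups are named by age and genotype, as 12-week-WT or 21-week-DB. WT mice were littermates, and the DB strain carries the leptin receptor mutation in every tissue. Each group was 1 library made from pooled mice, so no test between groups was possible and differences between libraries are given with exact 95% intervals, which describe counting error and no spread between mice.

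The 4 libraries held 5998, 7463, 8208 and 9124 barcodes for WT and DB at 12 weeks and then WT and DB at 21 weeks, an order kept for all values that follow. After barcodes under 200 genes or over 10% mitochondrial UMIs were removed, 27800 remained. Median UMIs per kept barcode were 7390, 7193.5, 8000.5 and 5355. Lepr was nearly absent (28, 16, 30 and 17 UMIs), so it could not serve as a check of genotype. The libraries 21-week-WT and 21-week-DB shared 154 barcode sequences and the other pairs between 6 and 41. Kept barcodes were assigned to cell classes by fixed marker lists, and the 11 immune classes with at least 20 cells in every library are described. Type 1 conventional dendritic cells, Langerhans-like cells, Ccr7+ dendritic cells and the non-immune classes did not enter the tests. Levels are UMIs per 1000000 UMIs of the same cells (UPM). The file headers of the 12-week libraries name Cell Ranger 5.0.0 and those of the 21-week libraries 6.0.0, so age and software version cannot be told apart.

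Members together held 1.57%, 1.77%, 1.60% and 1.65% of all UMIs of kept barcodes. Levels were uneven between members. Cox4i1, the common form of complex IV subunit 4, had 937 UPM over all kept barcodes, the ATP synthase subunit Atp5l 687, and the small complex IV subunits Cox7c, Cox8a and Cox6c 579, 565 and 539. In each library a few members held a large part of the module, with 19.7% of its UMIs in the top 5 genes and 51.7% in the top 20 in 12-week-WT. At the low end stood the alternative forms Cox4i2 (0.59 UPM) and Cox6a2 (1.47), the paralog Ndufa4l2 (0.71), the assembly factor Ndufaf1 (5.26) and Cox7a1 (5.78), the form of subunit 7a that predominates in heart and skeletal muscle. Levels were not divided by transcript length, because the 3' method counts 1 tag per molecule, and capture may still differ between genes.

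The summed level of the members separated the classes more than it separated the libraries. Macrophages had 16741, 19602, 16895 and 18662 UPM (17975 ± 1392, SD over the 4 libraries). Type 2 conventional dendritic cells (cDC2) had 16496, 18844, 16876 and 16760, monocytes 18060, 16452, 16251 and 16988, and dermal γδ T cells 15528, 17497, 15426 and 16698. These 4 classes overlapped with each other and lay above the other 7 of the 11 classes in the mean. Of the classes outside the tests, type 1 conventional dendritic cells had 14041 to 18228 UPM and keratinocytes 17172 to 20984. Type 2 innate lymphoid cells (ILC2) had 13555 to 15350, αβ T cells 12731 to 14182, natural killer (NK) cells 12599 to 14791, dendritic epidermal T cells (DETC) 10889 to 14132 and mast cells 10061 to 13269. B cells had 9694 to 12490 and neutrophils 8946 to 9315. Neighbours in this order overlapped in their ranges over the libraries, except that dermal γδ T cells lay above ILC2 and B cells above neutrophils in all 4 libraries.

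**Figure D1:**
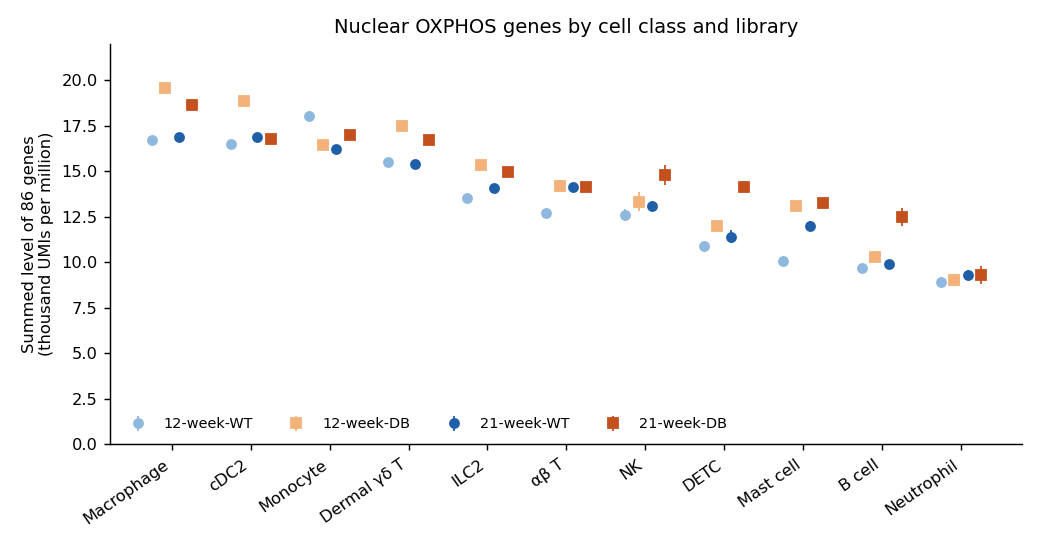
Summed level of the 86 members (in units of 1000 UPM) in each cell class, with 1 point per library and exact 95% counting intervals. Macrophages sit between 16741 and 19602 UPM and neutrophils between 8946 and 9315.

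Classes could be tested against each other because each library held all of them. UMI counts were summed per library and class, 44 sums in all, and tested by edgeR's quasi-likelihood method with a library term. A gene was called at a Benjamini-Hochberg adjusted p under 0.05 over all 11638 genes tested. The p-values rest on the spread left after the library term, estimated over all classes together. The 4 libraries differ in genotype and age, and class differences that vary with these are part of that spread. Of the 86 members, 83 passed the filter on low counts, and Cox4i2, Cox6a2 and Ndufa4l2 did not. Each class was set against the mean of the other 10, so the contrasts share sums and are not independent of each other.

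Members were mostly higher in cDC2, monocytes and macrophages. In cDC2, 70 members were higher and 0 lower, where 31.7% of all genes were called higher and 22.7% lower. In monocytes 62 were higher and 0 lower (25.3% and 19.1% of all genes), and in macrophages 61 were higher and 2 lower (37% and 27.6%). The median log2 fold of the members was 0.50 in cDC2, 0.49 in monocytes and 0.45 in macrophages, against 0.04, -0.04 and 0.06 for all genes tested. Members are abundant genes, and among the 1505 genes with at least 100 UPM the shares called higher were 51.8%, 48.6% and 42.8%, and those called lower 23.2%, 19.3% and 35%, beside 49, 45 and 42 higher and 0, 0 and 2 lower of the 55 members at that level. Dermal γδ T cells followed with 37 higher and 3 lower (30.8% and 18.5% of all genes), and with 21 to 29 higher when any 1 library was left out (21 without 12-week-WT and 23 without 12-week-DB).

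More members were lower than higher in DETC, B cells, mast cells and neutrophils. In DETC 2 members were higher and 58 lower (27.3% and 22.5% of all genes), in B cells 2 and 55 (22.5% and 19.8%), in mast cells 6 and 44 (25.9% and 22.2%) and in neutrophils 8 and 40 (20% and 24.5%). Among genes with at least 100 UPM, 45.4%, 44.7%, 39.7% and 35.6% were called lower in these classes, beside 42, 45, 36 and 28 of the 55 members at that level. In neutrophils the median of all genes was as low as that of the members (both -0.35), while among genes with at least 100 UPM the medians were -0.32 for members and -0.012 for all genes. The neutrophil count of lower members was 66 when scaled by total UMIs alone, 22 with RLE scaling, 20 with DESeq2 and 23 without either DB library, and the mast cell count was 27 without the 12-week-WT library and 29 without the library term. αβ T cells (2 higher, 16 lower, against 22.4% and 15.1% of all genes), NK cells (2 and 16, against 12.3% and 10.2%) and ILC2 (7 and 8, against 29.2% and 17.8%) lay near the mean of the classes, and scaling by total UMIs alone gave 27 higher and 5 lower in ILC2 and 13 and 4 in αβ T cells. The lower members were 6 in αβ T cells without the 12-week-DB library, 4 in NK cells without the 21-week-WT library and 4 in ILC2 without the 12-week-WT library. Mast cells were shallow, with median UMIs per cell of 1428 to 2075, and neutrophils and B cells had 2495 to 3751, and the part of depth in these differences was not tested.

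**Figure D2:**
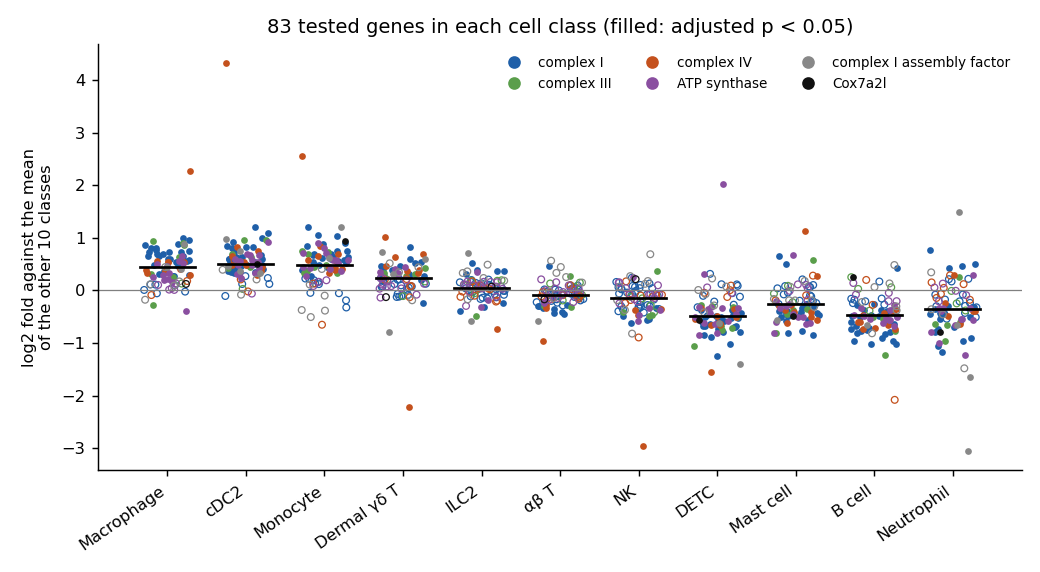
log2 fold of each of the 83 tested members in a class against the mean of the other 10 classes (edgeR), coloured by complex, with the median as a bar and filled points at an adjusted p under 0.05. The medians fall from 0.50 in cDC2 to -0.48 in DETC, and Cox6b2 in cDC2 (4.32) and Atp5md in DETC (2.02) stand far above the other members.

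The order of the classes changed with the complex. Of all genes, 37% were called higher in macrophages, 31.7% in cDC2, 25.3% in monocytes and 30.8% in dermal γδ T cells. Those called lower were 27.6% in macrophages, 22.7% in cDC2, 22.5% in DETC and 19.8% in B cells. Of the 36 complex I subunits, 30 were higher and 0 lower in macrophages (median log2 fold 0.60), 31 and 0 in cDC2 (0.55), 0 and 26 in DETC (-0.51) and 1 and 28 in B cells (-0.49). All 8 complex III subunits were higher in monocytes and all 8 lower in DETC (medians 0.47 and -0.59). For complex IV, 11 of 13 tested subunits were higher in macrophages and 10 lower in B cells. For the ATP synthase, 16 of 17 were higher in cDC2 (median 0.48) but 11 higher and 1 lower in macrophages (0.21). Of the 8 assembly factors 3 were higher in macrophages, 5 in cDC2 and 3 in dermal γδ T cells. The counts in macrophages and dermal γδ T cells were near the shares of all genes there. The assembly factors had their largest median in dermal γδ T cells (0.39), and in monocytes it was 0.0078. They had few UMIs, between 3.4 and 54.6 UPM each in macrophages.

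Within complex I, Ndufb8 and Ndufa5, accessory subunits of the membrane and matrix arms, had the largest rises in macrophages after Cox7a1. Ndufb8 had 194, 229, 222 and 218 UPM in macrophages and 66.2, 71.7, 108 and 62.7 in DETC, and its log2 fold in macrophages was 1.01 ± 0.08 (SE, adjusted p = 1.12e-13, edgeR). Ndufa5 was higher by 0.95 ± 0.09 (adjusted p = 3.61e-12, edgeR). In cDC2, Ndufc2 (1.21 ± 0.09, adjusted p = 7.16e-15, edgeR) and Ndufb8 (1.09 ± 0.09) led complex I. In DETC, Ndufb7, another membrane-arm subunit, had a log2 fold of -1.24 ± 0.11. Monocytes were marked by Ndufs4, an accessory subunit (1.21 ± 0.14, adjusted p = 2.83e-09, edgeR).

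Cox6b2, the testis-enriched form of complex IV subunit 6b, had its highest levels in cDC2 among the tested classes. The other dendritic cell classes were outside this comparison, and their Cox6b2 levels are not given here. The comparison alone therefore does not tell a gene of cDC2 alone from one shared by dendritic cells. Cox6b2 had 64.6, 63.4, 62.0 and 53.5 UPM in cDC2, between 13.6 and 25.2 in monocytes and between 2.30 and 5.36 in macrophages. The 4 cDC2 values lay above every value of every other class in the test. Its log2 fold in cDC2 was 4.32 ± 0.14 (SE, adjusted p = 5.54e-26, edgeR) and between 4.21 and 5.48 over the 16 alternative fits. Monocytes were second (2.56 ± 0.24, adjusted p = 4.52e-12, edgeR), and mast cells had 5.7 to 13.6 UPM. Cox6b1, the common form, still supplied most of subunit 6b, and Cox6b2 was 12.04% ± 1.13 (SD, n = 4) of Cox6b1 and Cox6b2 UMIs in cDC2, 4.60% in monocytes and 0.98% in macrophages.

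Over all kept barcodes Cox6b2 had 19.0, 11.8, 18.5 and 5.02 UPM, a log2 difference between 21-week-DB and 21-week-WT of -1.89 [-2.08, -1.70]. Within cDC2 that difference was -0.21 [-0.55, 0.11], while the number of cDC2 was 558, 383, 793 and 124. In macrophages Cox6b2 was also lower in 21-week-DB (-1.22 [-1.83, -0.65]) on 135 UMIs over both libraries, and whether this follows the smaller number of cDC2 in the same library was not tested. The number of cDC2 and the level over all kept barcodes were both lowest in 21-week-DB.

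Cox7a1 and Atp5md also had their highest levels in 1 class. Cox7a1 had 10.3, 12.7, 11.9 and 7.56 UPM in macrophages and at most 7.01 in the other tested classes, with a log2 fold of 2.26 ± 0.24 (SE, adjusted p = 9.67e-11, edgeR). All 4 macrophage values lay above those of the other classes, the lowest of them narrowly. Cox7a1 was also called higher in dermal γδ T cells (1.02 ± 0.33, adjusted p = 0.00875, edgeR), and this call was lost without the 12-week-WT or the 21-week-DB library. It was 1.86% to 3.66% of Cox7a1 and Cox7a2 UMIs in macrophages, so the liver-type Cox7a2 supplied the rest. Markers of skeletal muscle, where Cox7a1 is abundant, were at 4.05 to 4.32 UPM in macrophages in all 4 libraries. The marker Myh4 was at 0 there and also in the cells gated as skeletal muscle, so its absence carries no information. Whether muscle RNA adds to Cox7a1 in macrophages was not tested. Atp5md, a small subunit that helps to hold ATP synthase dimers together, had 571, 1008, 1061 and 2155 UPM in DETC and at most 487 in any other class. Its log2 fold in DETC was 2.02 ± 0.12 (adjusted p = 4.17e-18, edgeR), against a median of -0.48 for the members there. DETC also showed the largest spread of Atp5md over the libraries, with 21-week-DB higher than 21-week-WT by 1.02 on the log2 scale.

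**Figure D3:**
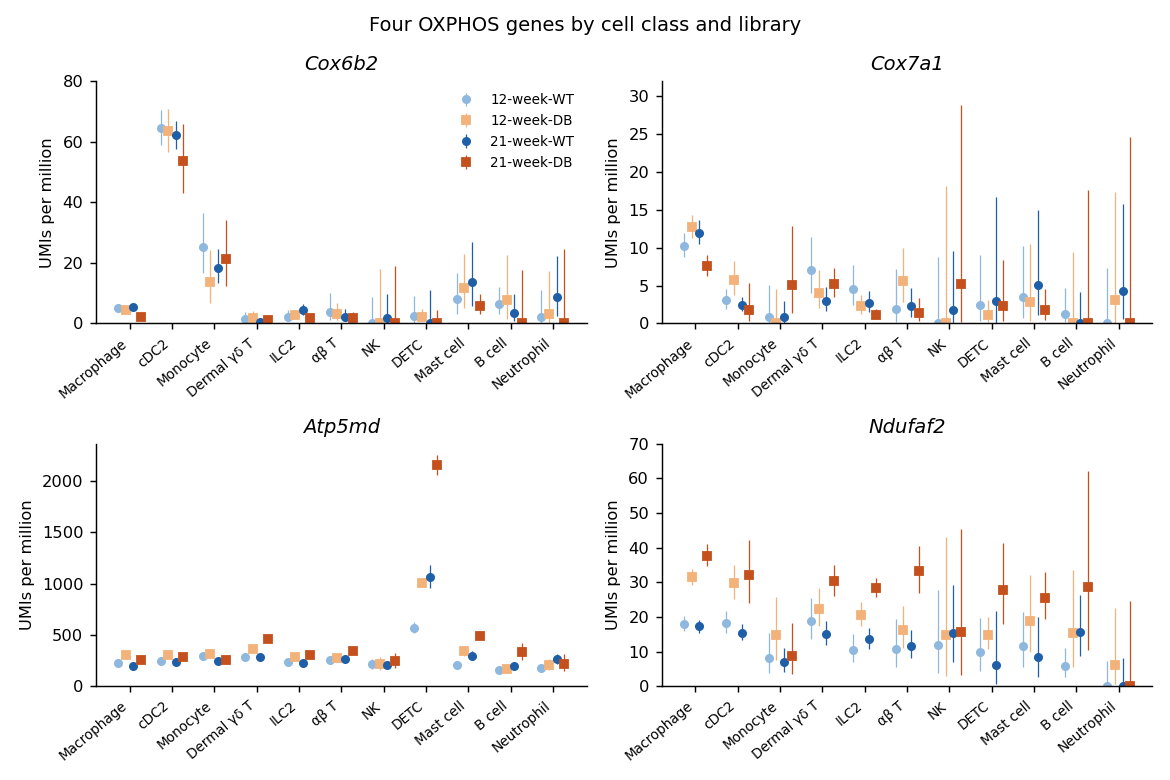
Levels of Cox6b2, Cox7a1, Atp5md and Ndufaf2 (UPM) by class, with 1 point per library and exact 95% counting intervals. Cox6b2 reaches 53.5 to 64.6 UPM in cDC2, Atp5md 571 to 2155 in DETC and Cox7a1 7.56 to 12.7 in macrophages, and Ndufaf2 is higher in DB than in WT at both ages in macrophages.

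Assembly factors differed between classes in their own ways. Ndufaf7, a methyltransferase that modifies a complex I subunit during assembly, was higher in neutrophils (37.8, 49.9, 39.2 and 127 UPM, log2 fold 1.49 ± 0.21, adjusted p = 1.33e-07, edgeR) and in monocytes (1.21 ± 0.14), and lower in dermal γδ T cells (-0.80 ± 0.14). The neutrophil levels rest on few UMIs, and that of 21-week-DB came from 39 cells with 149566 UMIs of all genes. Ndufaf4 was higher in dermal γδ T cells (0.73 ± 0.14) and ILC2 (0.71 ± 0.14). Ndufaf2, a chaperone that resembles Ndufa12 and leaves the complex when that subunit joins, had 0, 6.24, 0 and 0 UPM in neutrophils and was called lower there (adjusted p = 8.06e-05, edgeR). A fold against so few counts depends on the fit, and these neutrophil sums could not separate a low level from none.

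Of the paralogous forms of the c-ring subunit of the ATP synthase, which encode the same mature protein, Atp5g2 supplied 43.3% ± 1.7 (SD, n = 4) of the UMIs in macrophages, 54.1% ± 0.9 in ILC2 and 58.7% ± 6.7 in B cells. Atp5g1 had 23.2%, 28.8%, 26.2% and 32.3% in macrophages and 13.9%, 16.7%, 17.7% and 22.5% in αβ T cells. In both classes the share was higher in DB than in WT at each age, and Atp5g3 went the other way in macrophages (33.4%, 29.1%, 28.2% and 25.6%). Atp5g2 was lower in neutrophils (log2 fold -1.22 ± 0.12, adjusted p = 2.41e-11, edgeR). Cox6a1, Cox4i1 and Ndufa4 supplied between 98.5% and 99.9% of the UMIs of their pairs with Cox6a2, Cox4i2 and Ndufa4l2 in macrophages.

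Set against each other, macrophages had 3 members higher and 15 lower than cDC2 (19.7% and 18.2% of all genes), and 15 and 5 when scaled by total UMIs alone. Without the 12-week-WT or the 21-week-WT library 6 or 5 were lower. Ndufa6 (-0.74 ± 0.12) and Atp5g2 (-0.61 ± 0.12) were among the lower ones. Mast cells had 2 members higher and 65 lower than macrophages (25.5% and 29.6% of all genes), with Ndufs8 at -1.47 ± 0.16 and Ndufb8 at -1.21 ± 0.13, and with Cox6b2 and Atp5f1 as the 2 that were higher. No member passed the test between ILC2 and αβ T cells. edgeR called 0 of 83 at an adjusted p under 0.05 (7.09% higher and 6.28% lower of all genes), 8 were higher and 0 lower at an unadjusted p under 0.05, and DESeq2 called 8 higher.

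The comparison of DB with WT asked how the diabetic genotype went with these genes at each age, and it rests on 1 library per group. In macrophages the summed level of the module was higher in DB by 0.23 [0.22, 0.23] on the log2 scale at 12 weeks and by 0.14 [0.14, 0.15] at 21 weeks, a gain of 17.1% and 10.5%. At 12 weeks 84 members had at least 100 UMIs over both libraries. Of these, 25 were higher by over 25% and 0 lower by over 20% (the same fold in both directions), beside 11.4% and 14.8% of all genes, and 74 were higher by any amount. The median log2 difference was 0.23 for members and 0.01 for all genes. At 21 weeks 17 of 83 were higher and 3 lower, beside 26.2% and 17.9% of all genes, with medians of 0.15 and 0.05, so at that age the share of members past the fold was below the background in both directions.

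Transcript length went with the same difference. The median member had a longest annotated transcript of 1025 bases. Among all genes as short as these, the median log2 difference in macrophages was 0.21 at 12 weeks (569 genes) and 0.38 at 21 weeks (569 genes), against 0.00 and 0.03 for longer genes. Short members had medians of 0.26 and 0.15 and longer members 0.22 and 0.11. Short genes in general were thus also higher in DB at 12 weeks, by slightly less than the short members, and by more than them at 21 weeks. By this length, the longer members stood above the longer genes at both ages. The longest annotated transcript need not be the form that was counted. It put Atp5l (6310 bases), Atp5g1 (4715) and the small subunit Cox6c (3038) among the longer members. Whether members differ from genes with counted transcripts of like length was not tested. Among the 1595 genes with at least 100 UPM in macrophages the medians were 0.04 and 0.02, and 0.26 and 0.15 for the 61 members at that level. The cytosolic ribosomal proteins, which are short, went from 109048 to 121918 UPM at 12 weeks and from 131668 to 171245 at 21 weeks in macrophages, and their part in the members' difference was not tested.

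Complex I, the largest group of members, also had the most members past the fold in macrophages at 12 weeks. Its subunits summed to 4602, 5526, 4772 and 5425 UPM, a DB/WT log2 difference of 0.26 [0.25, 0.28] at 12 weeks and 0.18 [0.17, 0.20] at 21 weeks, with 13 of 36 higher by over 25% at 12 weeks, 6 at 21 weeks and 0 lower at either age, beside 11.4% and 26.2% of all genes higher. Ndufa12, the accessory subunit that replaces Ndufaf2 late in assembly, had 96.5, 133, 105 and 147 UPM, and its differences were 0.46 [0.37, 0.55] and 0.49 [0.40, 0.57]. Both DB values lay above both WT values. Ndufb9 had 176, 229, 222 and 310 UPM and Ndufa6 211, 271, 262 and 354, and in both genes the 21-week-WT value came close to that of 12-week-DB. Ndufs1, the largest core subunit, which carries iron-sulfur clusters, had 37.7, 41.8, 37.1 and 30.8 UPM, and its differences were 0.15 [-0.00, 0.30] and -0.27 [-0.44, -0.10]. Ndufv1, which binds NADH, had 52.4, 67.2, 62.7 and 66.9 UPM.

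Among the groups of members, the complex I assembly factors had the largest differences. They summed to 154, 196, 147 and 211 UPM in macrophages, which is 0.35 [0.28, 0.42] at 12 weeks and 0.53 [0.45, 0.60] at 21 weeks on the log2 scale, and 4 and 6 of 8 were higher by over 25% (11.4% and 26.2% of all genes). Ndufaf2 led both ages with 18.02, 31.5, 17.3 and 37.7 UPM, differences of 0.81 [0.61, 1.01] and 1.13 [0.93, 1.33]. The 2 WT libraries were close to each other and both DB libraries lay well above them. Ndufaf4 had 24.5, 32.2, 21.7 and 35.04 UPM (0.39 and 0.69) and Ndufaf7 31.3, 40.9, 33.1 and 47.6 (0.39 and 0.52). Ndufaf3 (0.52 [0.26, 0.77]) and Ndufaf6 (0.50 [0.11, 0.88]) were higher at 21 weeks, with differences of -0.07 [-0.30, 0.16] and 0.08 [-0.29, 0.46] at 12 weeks.

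Complex III summed to 1860, 2182, 1881 and 2042 UPM in macrophages, with differences of 0.23 [0.21, 0.25] and 0.12 [0.10, 0.14]. The small subunit Uqcrb was higher at both ages (242, 324, 239 and 304 UPM), while the core subunit Uqcrc1 had 110, 122, 103 and 83.7 UPM and was lower at 21 weeks (-0.31 [-0.41, -0.20]). Uqcrfs1, the Rieske iron-sulfur protein, had 78.0, 90.9, 93.8 and 105.5 UPM. Complex IV summed to 4809, 5665, 4791 and 5529 UPM, with differences of 0.24 [0.22, 0.25] and 0.21 [0.19, 0.22]. Cox5b had 211, 292, 235 and 307 UPM (0.47 [0.41, 0.53] and 0.38 [0.32, 0.44]), and Cox5a had 261, 300, 242 and 257. Cox4i1 had 945, 1054, 1007 and 1122, a difference of 0.16 at each age. Cox7a2l had 269, 248, 296 and 359 UPM, lower in DB at 12 weeks (-0.11 [-0.17, -0.06]) and higher at 21 weeks (0.28 [0.22, 0.33]).

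Among complexes I, III and IV and the ATP synthase, the ATP synthase had the largest change in the DB/WT difference between the ages, which was not tested. It summed to 5047, 5784, 5007 and 5095 UPM in macrophages, 0.20 [0.18, 0.21] at 12 weeks and 0.03 [0.01, 0.04] at 21 weeks. The catalytic core subunits showed little of the 12-week difference and were lower in DB at 21 weeks. Atp5a1, the alpha subunit of the catalytic head, had 369, 365, 356 and 257 UPM, differences of -0.02 [-0.07, 0.03] and -0.47 [-0.53, -0.41], and Atp5b, the beta subunit, had 371, 387, 326 and 312 UPM (0.06 [0.01, 0.11] and -0.07 [-0.12, -0.01]). The 21-week-DB value of Atp5a1 stood apart from the other 3 libraries. Atp5md was higher in DB at both ages (222, 308, 201 and 260 UPM, 0.47 [0.42, 0.53] and 0.37 [0.30, 0.43]), and Atp5k, another small membrane subunit, was higher at 12 weeks and lower at 21 weeks (297, 348, 264 and 221 UPM).

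**Figure D4:**
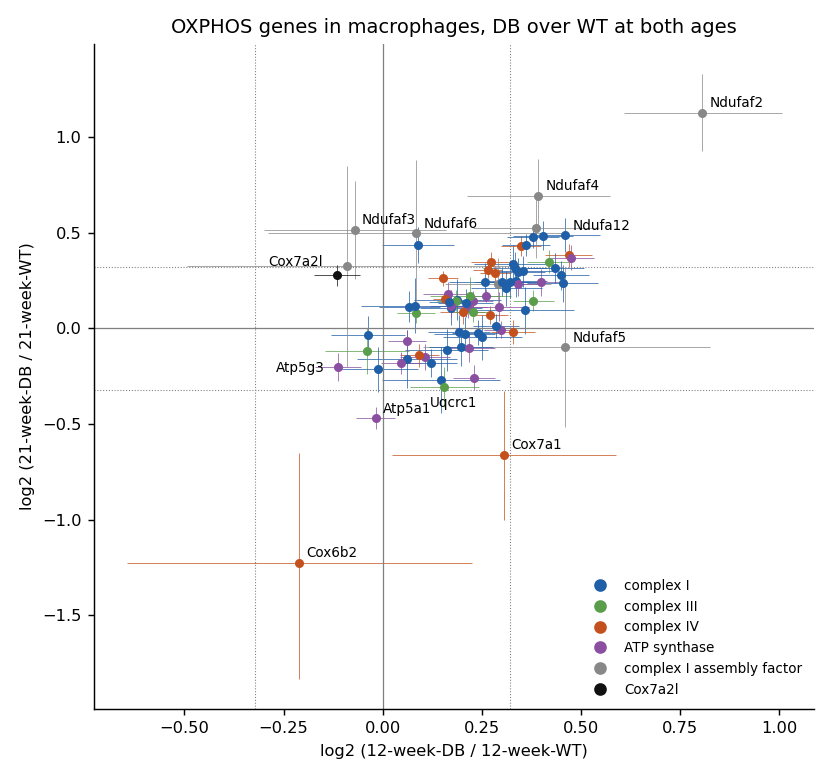
log2 ratio of DB to WT in macrophages at 12 weeks (x axis) and at 21 weeks (y axis) for members with at least 100 UMIs over both libraries at each age, coloured by complex, with exact 95% counting intervals and dotted lines at the fold used for counts. Ndufaf2 lies at 0.81 and 1.13, most complex I subunits lie above 0 on both axes, and Atp5a1, Uqcrc1, Cox7a1 and Cox6b2 lie below 0 at 21 weeks.

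Some members differed in the same direction in every class that had enough counts. At 21 weeks, 77 members had at least 100 UMIs over both libraries in at least 5 classes. Of these, 11 were higher in DB in all their classes, where 13.9% of all 6303 genes with as many classes were (Cox5b, Ndufa11, Ndufa12, Ndufa6, Ndufaf2, Ndufaf4, Ndufaf7, Ndufb11, Ndufb4, Ndufs7 and Uqcrb) and 5 were lower in all, where 15.8% of all genes were, among them Atp5a1, Ndufs1, Ndufs6 and Uqcrc2. The share of members higher in all classes was thus near that of all genes, and the share lower in all was below it. Ndufaf2 was higher in 5 of 5 classes (1.01 to 1.51 on the log2 scale), and Ndufa12 in 8 of 8 (0.28 to 1.05). Atp5a1 was lower in 10 of 10 classes, with a smallest difference of -0.02, and had 365, 337, 313 and 221 UPM in cDC2 and 362, 337, 333 and 248 in ILC2. At 12 weeks the same criterion was met by 1 member that was higher (Ndufa5) and 0 that were lower, of 73 (4.46% and 2.91% of all genes). The classes of a library share its preparation and sequencing, so a class is no replicate of another.

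Outside macrophages the module at 12 weeks was higher in DB in mast cells (log2 difference 0.38 [0.34, 0.42]), cDC2 (0.19), ILC2 (0.18), dermal γδ T cells (0.17), αβ T cells (0.16), DETC (0.14), B cells (0.09) and NK cells (0.08), lower in monocytes (-0.13 [-0.17, -0.10]) and within counting error in neutrophils (0.01 [-0.06, 0.08]). At 21 weeks it was higher in B cells (0.33), DETC (0.31), NK cells (0.18), mast cells (0.14), dermal γδ T cells (0.11), ILC2 (0.09) and monocytes (0.06), and cDC2 (-0.01 [-0.03, 0.01]), αβ T cells (-0.00 [-0.02, 0.02]) and neutrophils (-0.00 [-0.09, 0.08]) were within counting error. The classes with the larger values at 21 weeks were small, with 51 B cells, 28 NK cells and 182 DETC in 21-week-DB.

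The counts of members past this fold set this beside the other genes. In mast cells at 12 weeks, 37 of 57 members were higher and 0 lower (16.1% and 17.2% of all genes), with medians of 0.37 for members and -0.03 for all genes. In cDC2 17 of 80 were higher and 0 lower at 12 weeks (10.2% and 10.7%), and 3 higher and 9 lower of 79 at 21 weeks (22.5% and 22.4%). In ILC2 11 of 78 were higher and 0 lower at 12 weeks (13.7% and 11.2%) and 16 higher and 6 lower of 81 at 21 weeks (21.4% and 30.1%), and in dermal γδ T cells 10 higher and 2 lower of 76 (13.8% and 7.88%) and 15 higher and 4 lower of 78 (25.5% and 22.6%). In monocytes 0 of 70 were higher and 16 lower at 12 weeks (23.1% and 14.3%). In monocytes 6 were higher and 6 lower of 73 at 21 weeks (19.6% and 28.6%), and in mast cells 15 higher and 8 lower of 70 (25.4% and 22.3%). In αβ T cells 15 were higher and 2 lower of 73 at 12 weeks (16.4% and 9.95%), and 9 higher and 10 lower of 77 at 21 weeks (25.8% and 23.5%). In DETC at 12 weeks 9 were higher and 1 lower of 72 (21.5% and 11.6%), and in B cells 10 and 6 of 59 (15.5% and 19.4%). NK cells and neutrophils had few members with enough UMIs, with 8 higher and 2 lower of 28 (13.6% and 21.6%) and 3 and 6 of 29 (23.4% and 20.4%) at 12 weeks, then 12 and 2 of 41 (22.1% and 40.8%) and 1 and 2 of 16 (25.7% and 36%). In B cells at 21 weeks 22 of 43 were higher and 3 lower (22.1% and 41.2%), and in DETC 20 of 45 and 4 (36% and 22.8%). In the higher direction, the members' shares past the fold were near those of all genes in ILC2 at both ages and in dermal γδ T cells at 12 weeks. In dermal γδ T cells at 21 weeks the members' share was below that of all genes.

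Over all kept barcodes, where cell composition also differs, the module was higher by 0.17 at 12 weeks and by 0.04 at 21 weeks. There 10 of 85 members were higher and 2 lower past the fold at 12 weeks (12.3% and 13% of all genes), and 6 higher and 9 lower of 84 at 21 weeks (35.1% and 18.7%). The log2 difference of all genes had a median of 0.13 at 21 weeks, above most members, while among genes with at least 100 UPM the medians were 0.048 for members and 0.022 for all genes. Ndufaf2 (1.05 [0.94, 1.16]), Ndufaf4 (1.004 [0.91, 1.09]) and Ndufa12 (0.73 [0.69, 0.78]) were the highest at 21 weeks, and Uqcrc1 (-0.44 [-0.51, -0.38]), Ndufs8 (-0.46 [-0.53, -0.38]) and Atp5a1 (-0.41 [-0.44, -0.38]) were among the lowest after Cox6a2 and Cox6b2.

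Age was compared within each genotype, in contrasts that share their libraries with the DB/WT contrasts and that cannot be told apart from the Cell Ranger version. In macrophages the log2 difference of the module between 21 and 12 weeks was 0.01 [0.01, 0.02] in WT and -0.07 [-0.08, -0.06] in DB, and the DB value turned to 0.045 relative to the median ratio of all genes and to 0.0055 without mitochondrial and ribosomal UMIs in the denominator. In WT 1 of 84 members was higher and 3 lower past the fold (7.17% and 29.7% of all genes), and in DB 3 of 83 were higher and 17 lower (16.9% and 30.5%). All genes had medians of -0.16 in WT and -0.12 in DB, against 0.00 and -0.07 for the members. Genes as short as the median member had medians of -0.017 in WT and 0.11 in DB, beside 0.0066 and -0.077 for the short members, so in DB the short members and short genes in general differed in sign. Ndufb9 (0.34 [0.27, 0.40]) and Ndufa6 (0.31 [0.25, 0.37]) were the highest with age in WT, and Atp5k (-0.65 [-0.71, -0.59]), Ndufc1 (-0.55 [-0.64, -0.46]) and Uqcrc1 (-0.54 [-0.64, -0.45]) were among the lowest in DB.

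The mitochondrially encoded subunits of the same complexes did not follow the nuclear members. The 13 mitochondrial genes summed to 37207, 28898, 40765 and 23403 UPM in macrophages, a DB/WT log2 difference of -0.36 [-0.37, -0.36] at 12 weeks and -0.80 [-0.81, -0.79] at 21 weeks, with 6 of 13 lower and 0 higher past the fold at 12 weeks and 11 lower and 1 higher (mt-Nd6) at 21 weeks, beside 14.8% and 17.9% of all genes lower. At 21 weeks they were lower in DB in all 11 classes, from -0.23 in NK cells to -1.45 in DETC, and at 12 weeks they were lower in 8 classes and higher in monocytes (0.13), NK cells (0.07) and neutrophils (0.67). The UMIs of nuclear members per mitochondrially encoded UMI were 0.450, 0.678, 0.414 and 0.797 in macrophages and 0.423, 0.562, 0.402 and 0.635 over all kept barcodes. mt-Nd3 had 650, 330, 548 and 158 UPM in macrophages and mt-Co1 8449, 7288, 9111 and 6291, so the size of the difference varied between genes. Kept cells were limited to 10% mitochondrial UMIs, and median mitochondrial shares of kept cells were 3.61%, 3.05%, 3.96% and 2.47%. Mitochondrial UMIs also reflect cell quality, and their part in these differences was not tested.

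**Figure D5:**
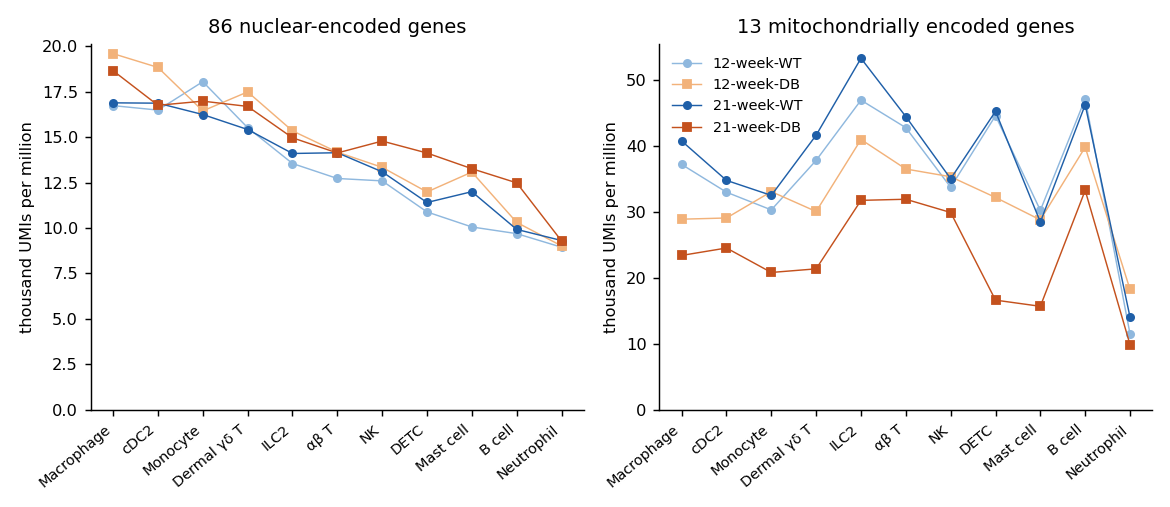
Summed levels (in units of 1000 UPM) of the 86 nuclear-encoded members and of the 13 mitochondrially encoded subunits by class, with 1 line per library that only joins points of the same library. In macrophages the nuclear members were higher in both DB libraries, while the mitochondrially encoded subunits were at 40765 UPM in 21-week-WT and 23403 in 21-week-DB.

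Between classes too the mitochondrially encoded subunits differed from the nuclear members. edgeR called 13 of 13 higher in B cells (median log2 fold 0.72) and in ILC2 (0.39) and 13 of 13 lower in neutrophils (-1.05). Of all genes, 22.5% and 29.2% were called higher in B cells and ILC2, and 24.5% lower in neutrophils. In macrophages 2 of the 13 were higher and 1 lower (37% and 27.6% of all genes). In monocytes 3 and 0 were (25.3% and 19.1%), and in cDC2 2 and 2 (31.7% and 22.7%). B cells were thus low in nuclear members and high in mitochondrially encoded ones, with 0.206, 0.259, 0.215 and 0.375 nuclear UMIs per mitochondrial UMI, the lowest ratio among the 11 classes in each library.

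Genes of the neighbouring steps gave a mixed picture in macrophages. Complex II, which feeds electrons from succinate into the chain and is wholly nuclear-encoded, had 378, 391, 369 and 329 UPM, DB/WT differences of 0.05 [0.00, 0.09] and -0.16 [-0.22, -0.11]. Within it the catalytic subunit Sdha had 105, 97.5, 98.3 and 65.6 UPM and the iron-sulfur subunit Sdhb 85.0, 102, 96.5 and 118, so the larger subunit was lower and the smaller one higher in 21-week-DB. Cycs, cytochrome c, had 103, 136, 82.9 and 126 UPM (0.40 [0.31, 0.48] and 0.60 [0.50, 0.70]). Of Cycs and Cyc1, cytochrome c1, 1 was higher and 0 lower past the fold at each age, beside 11.4% and 26.2% of all genes higher. The medians of these 2 genes were 0.25 and 0.31, below the values of Cycs. The mitochondrial ribosome, which translates the mitochondrially encoded subunits, had 19 of 78 proteins higher and 0 lower past the fold at 12 weeks and 34 higher and 1 lower at 21 weeks, beside 11.4% and 14.8% and then 26.2% and 17.9% of all genes. edgeR called 58 of the 78 higher and 2 lower in macrophages and 57 and 0 in cDC2, beside 37% and 27.6% and then 31.7% and 22.7% of all genes. Citric acid cycle enzymes had 1 of 13 higher and 0 lower at 12 weeks and 1 higher and 2 lower at 21 weeks, and glycolysis 3 of 14 and 0, then 0 and 5, beside the same shares of all genes past the fold. Ppargc1b, a coactivator of mitochondrial biogenesis, had 14.9, 11.8, 15.1 and 6.82 UPM, with a difference of -1.15 [-1.49, -0.81] at 21 weeks, and of the 9 of 10 regulators with enough counts 1 was higher and 1 lower at that age.

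Promoter windows from 250 bases before to 50 after the start site were taken from RefSeq (GRCm38.p6) and were found for 71 of the 86 members, beside 27025 genes in all. NRF1, ETS factors and YY1 are known regulators of nuclear genes for mitochondrial proteins. The NRF1 core motif TGCGCA occurred on either strand in 23.9% of members and 8.79% of all genes, the ETS motif CCGGAAG in 23.9% and 9.93%, the YY1 motif AAGATGG in 16.9% and 7.28%, the Sp1 motif GGGCGG in 45.1% and 38.2%, and CCAAT in 43.7% and 41.1%. None of these was found in 9 members. The windows of the members that stood apart in these data are shown, Ndufaf2 and Ndufa12 for their difference between DB and WT and Atp5md, Cox6b2 and Cox7a1 for their class, with capitals for any of these motifs on either strand.
Ndufaf2, chr13:108158576-108158875, minus strand: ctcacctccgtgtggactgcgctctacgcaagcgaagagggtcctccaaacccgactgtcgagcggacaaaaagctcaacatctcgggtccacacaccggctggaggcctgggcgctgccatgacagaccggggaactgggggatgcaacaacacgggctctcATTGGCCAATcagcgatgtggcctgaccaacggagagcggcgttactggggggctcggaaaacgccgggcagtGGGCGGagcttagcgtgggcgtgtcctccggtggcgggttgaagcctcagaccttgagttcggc
Ndufa12, chr10:94198785-94199084, plus strand: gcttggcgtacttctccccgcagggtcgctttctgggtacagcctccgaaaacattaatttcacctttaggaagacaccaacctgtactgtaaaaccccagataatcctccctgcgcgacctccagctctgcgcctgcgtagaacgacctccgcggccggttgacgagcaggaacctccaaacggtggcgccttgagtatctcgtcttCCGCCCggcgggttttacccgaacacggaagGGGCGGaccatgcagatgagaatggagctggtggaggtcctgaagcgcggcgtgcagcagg
Atp5md, chr19:47090598-47090897, minus strand: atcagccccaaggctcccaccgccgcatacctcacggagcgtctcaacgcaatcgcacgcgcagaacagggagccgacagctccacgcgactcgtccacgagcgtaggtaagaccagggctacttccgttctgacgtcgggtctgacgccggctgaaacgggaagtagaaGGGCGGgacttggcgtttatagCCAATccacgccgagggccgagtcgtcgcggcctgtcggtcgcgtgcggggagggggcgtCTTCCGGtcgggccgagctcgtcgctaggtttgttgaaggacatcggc
Cox6b2, chr7:4753045-4753344, minus strand: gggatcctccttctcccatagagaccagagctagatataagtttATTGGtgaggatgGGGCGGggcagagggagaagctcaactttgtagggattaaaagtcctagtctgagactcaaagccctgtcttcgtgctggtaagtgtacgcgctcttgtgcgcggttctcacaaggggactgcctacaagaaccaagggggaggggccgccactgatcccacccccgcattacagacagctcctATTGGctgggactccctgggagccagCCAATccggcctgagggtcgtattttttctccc
Cox7a1, chr7:30183921-30184220, plus strand: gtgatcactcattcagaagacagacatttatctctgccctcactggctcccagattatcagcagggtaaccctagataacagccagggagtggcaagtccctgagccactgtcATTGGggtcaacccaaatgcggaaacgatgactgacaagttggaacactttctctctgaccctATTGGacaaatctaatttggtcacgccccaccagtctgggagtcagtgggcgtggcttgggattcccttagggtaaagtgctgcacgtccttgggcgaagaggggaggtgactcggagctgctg

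Ndufaf2 and Ndufa12 thus held Sp1 motifs, and CCAAT in Ndufaf2 alone, with no NRF1 core motif, ETS or YY1 motif in either. Cox6b2 and Cox7a1, the members with the largest log2 fold in cDC2 and macrophages, held CCAAT, and Cox6b2 also held an Sp1 motif. Neither held an NRF1 core motif, ETS or YY1 motif, and Atp5md held CCAAT, Sp1 and ETS motifs. A match in such a window is a description of letters and shows no binding. Cox6b2 and Cox7a1 lie on chromosome 7, Ndufaf2 on chromosome 13, Ndufa12 on chromosome 10 and Atp5md on chromosome 19. Of the 86 members, 1 overlapped another gene on its own strand (Ndufa13 with Yjefn3) and 29 overlapped 1 on the opposite strand. Many members have processed copies elsewhere in the genome, and how reads shared with such copies were counted was not tested.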

How the data were processed

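CD45+ hindpaw leukocytes of 4 libraries were analysed. The authors deposited raw UMI counts per gene and barcode, made with Cell Ranger against mm10, with no normalization. The submitters' notes name version 5.0.0, while the file headers name 5.0.0 in the 12-week libraries and 6.0.0 in the 21-week libraries.

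Barcodes needed 200 genes and at most 10% mitochondrial UMIs. A barcode was assigned to a class when its marker score was at least 0.2, led the next class by 0.05 and rested on at least 2 detected markers, and 14.0% to 21.5% per library stayed unassigned. Doublets were not removed, and removal of the highest Scrublet scores (scanpy 1.11.5, 0.8% per 1000 barcodes) was an alternative. Ratios between libraries needed 100 UMIs over both, and intervals were exact (scipy 1.17.1, 95%). Classes with at least 20 cells in every library were compared in R 4.3.3 by the quasi-likelihood test of edgeR 4.0.16, after filterByExpr and TMM scaling and with a term for each library (Benjamini-Hochberg adjusted p under 0.05), and 16 alternatives included DESeq2 1.42.0. The code was tested on simulated data.

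Genes named were members with paralogs, the 5 most and 5 least abundant, the 5 with the largest rise and fall between libraries in macrophages and over all kept barcodes, the 3 called members with the largest rise and fall per class contrast, and 7 central subunits. Members given for their direction over classes, and a few shown within a complex, lie outside this rule and were chosen after their values were seen. The members, lists and rules were chosen with earlier results of these data known, and the comparison by transcript length, the removal of shared barcodes and the removal of ribosomal genes were added after the data were seen.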

Additional observations from a re-analysis of the deposited data

Results flagged for a closer look

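In monocytes the module differed in opposite directions at the 2 ages. It was lower in DB at 12 weeks (log2 difference -0.13) and higher at 21 weeks (0.0639), on 114, 115, 270 and 84 cells, and the difference between the ages was not tested because each group had 1 library.

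Cox7a1 in macrophages was higher in DB at 12 weeks (0.30) and lower at 21 weeks (-0.66), on 173, 270, 225 and 112 UMIs. Both intervals excluded 0, and the difference between the ages was not tested.

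Ndufb1-ps, left out by the rule on names, had 81599 UMIs over the 4 libraries and 376, 511, 355 and 350 UPM in macrophages, a level like that of the more abundant complex I subunits. Whether these reads come from a transcribed copy was not tested.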

How the results depend on the processing

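No paired analysis was possible because each group has 1 library and so shares fewer than 2 replicate numbers with any other, and a fit of genotype over both ages was not run. The log2 difference of the module in macrophages kept its direction between DB and WT at both ages under every alternative run. For DB/WT at 12 weeks it was 0.23, and 0.26 with cells thinned to 2000 UMIs, 0.22 without mitochondrial UMIs in the denominator, 0.24 without mitochondrial and ribosomal UMIs in the denominator, 0.22 relative to the median ratio of all genes and 0.24 as a mean over cells. For DB/WT at 21 weeks it was 0.14, and 0.15 with the ambient profile subtracted, 0.12 without mitochondrial UMIs in the denominator, 0.18 without mitochondrial and ribosomal UMIs in the denominator, 0.0907 relative to the median ratio of all genes, 0.13 as a mean over cells and 0.12 without the 5 most abundant members. For 21/12 weeks in WT it was 0.0132, and 0.00225 with at most 5% mitochondrial UMIs, 0.0478 with cells thinned to 2000 UMIs, 0.0581 without mitochondrial and ribosomal UMIs in the denominator, 0.18 relative to the median ratio of all genes and 0.0415 as a mean over cells. For 21/12 weeks in DB it was -0.0709, and -0.0782 with at most 5% mitochondrial UMIs, -0.0791 without mitochondrial UMIs in the denominator, 0.00554 without mitochondrial and ribosomal UMIs in the denominator, 0.0454 relative to the median ratio of all genes and -0.10 without the 5 most abundant members. The DB ageing value thus changed sign with another denominator, and the cause was not tested. For DB/WT at 12 weeks the count of members higher went from 25 to 1 at a fold of 1.5 and the count lower went from 0 to 1 with at most 5% mitochondrial UMIs. For DB/WT at 21 weeks the count of members higher went from 17 to 2 at a fold of 1.5 and the count lower went from 3 to 1 with at least 400 UMIs. For 21/12 weeks in WT the count of members higher went from 1 to 0 at a fold of 1.5, 13 relative to the median ratio of all genes, 3 without mitochondrial and ribosomal UMIs in the denominator, 0 with at most 5% mitochondrial UMIs, 2 with high doublet scores removed and 4 with cells thinned to 2000 UMIs and the count lower went from 3 to 1 at a fold of 1.5 and 1 relative to the median ratio of all genes. For 21/12 weeks in DB the count of members higher went from 3 to 0 at a fold of 1.5, 9 relative to the median ratio of all genes, 6 without mitochondrial and ribosomal UMIs in the denominator and 6 with cells thinned to 2000 UMIs and the count lower went from 17 to 3 at a fold of 1.5. In the other classes and over all kept barcodes, 157 of 572 values of the module difference moved by more than counting error. In macrophages 21 of 52 did. Counts past the fold moved by more than 1.5 times, or to or from 0, in 315 of 880 cases there and 17 of 80 in macrophages.

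Scaled by total UMIs only, members called were 1 lower in macrophages, 3 lower in monocytes, 13 higher in αβ T cells, 4 lower in αβ T cells, 27 higher in ILC2, 5 lower in ILC2, 6 higher in NK cells, 9 lower in NK cells, 2 higher in neutrophils, 66 lower in neutrophils, 15 higher in macrophages against cDC2 and 5 lower in macrophages against cDC2. Without the filter on low counts, members called were 1 lower in macrophages, 23 higher in dermal γδ T cells, 1 higher in DETC, 1 higher in αβ T cells, 5 lower in αβ T cells, 3 lower in ILC2, 1 higher in NK cells, 1 higher in B cells, 24 lower in neutrophils and 6 lower in macrophages against cDC2. Without the library term, members called were 1 lower in macrophages, 29 lower in mast cells, 1 higher in αβ T cells, 3 lower in αβ T cells, 5 lower in ILC2, 1 higher in NK cells, 9 lower in NK cells, 1 higher in B cells, 1 higher in macrophages against cDC2 and 5 lower in macrophages against cDC2. With RLE scaling, members called were 2 lower in monocytes, 5 lower in dermal γδ T cells, 22 lower in neutrophils and 1 higher in ILC2 against αβ T cells. With DESeq2, members called were 2 lower in monocytes, 9 lower in dermal γδ T cells, 27 lower in αβ T cells, 12 higher in ILC2, 13 lower in ILC2, 4 higher in B cells, 20 lower in neutrophils, 9 higher in macrophages against cDC2 and 8 higher in ILC2 against αβ T cells. With a stricter class gate, members called were 1 lower in monocytes, 6 higher in αβ T cells, 1 higher in NK cells and 3 higher in ILC2 against αβ T cells. Without shared barcodes, members called were 1 lower in monocytes, 1 higher in B cells and 1 higher in ILC2 against αβ T cells. With high doublet scores removed, members called were 6 higher in αβ T cells, 13 higher in ILC2, 4 higher in B cells and 1 higher in ILC2 against αβ T cells. With at most 5% mitochondrial UMIs, members called were 5 lower in ILC2 and 1 higher in B cells. With the ambient profile subtracted, members called were 0 higher in B cells. Without ribosomal and mitochondrial genes, members called were 1 higher in ILC2 against αβ T cells. Leaving out each library in turn gave 0 to 2 lower in macrophages (moved without 21-week-WT or 12-week-WT), 0 to 2 lower in monocytes (moved without 12-week-WT), 27 to 38 lower in mast cells (moved without 12-week-WT), 21 to 29 higher in dermal γδ T cells (moved without 12-week-DB or 12-week-WT), 1 to 4 lower in dermal γδ T cells (moved without 21-week-WT), 1 to 3 higher in DETC (moved without 21-week-DB or 12-week-DB), 1 to 2 higher in αβ T cells (moved without 21-week-WT or 12-week-DB), 6 to 14 lower in αβ T cells (moved without 12-week-DB), 4 to 9 lower in ILC2 (moved without 21-week-WT or 12-week-DB or 12-week-WT), 0 to 2 higher in NK cells (moved without 21-week-DB or 12-week-DB or 12-week-WT), 4 to 14 lower in NK cells (moved without 21-week-WT or 12-week-DB), 0 to 2 higher in B cells (moved without 21-week-WT or 12-week-WT), 5 to 8 higher in neutrophils (moved without 12-week-WT), 23 to 31 lower in neutrophils (moved without 21-week-DB or 12-week-DB) and 5 to 14 lower in macrophages against cDC2 (moved without 21-week-WT or 12-week-WT). All other counts of calls stayed within 1.5 times the reported count (361 of 448 with a value), among them members higher in macrophages, monocytes and cDC2 and lower in DETC and B cells. Of the calls for members named by the rule, 973 of 1056 held and 83 were lost, with 0 reversed. The causes of these moves were not tested.

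Depth limited the small classes most, with 28 NK cells, 39 neutrophils and 51 B cells in 21-week-DB. The intervals describe counting error, and differences between mice within a pool were not measured. In simulated counts for the macrophage contrast over 10677 genes, 22% of genes changed by the fold used for counts were recovered, 94% at 1.5-fold and 100% at 2-fold, with 7 false calls among 10477 unchanged genes. The simulation gave every class and library the same profile apart from the changed genes, with 1 fixed spread. In the data 37% of all genes were called higher and 27.6% lower in macrophages, so these rates need not hold there. In the simulated setting differences near the smallest fold were often missed, and how often members were missed in the data was not tested.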
